A study of Arabidopsis thaliana with 5 samples.

Results

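The SAUR genes (SMALL AUXIN UPREGULATED RNA) are the largest family of early auxin response genes of Arabidopsis thaliana, and binding of the TREE1 protein near them was examined by chromatin immunoprecipitation sequencing (ChIP-seq). Members were all nuclear protein-coding genes with the symbol or synonym SAUR followed by a number in the annotation used here, which gave 80 of 27444 genes. The name was the symbol of 16 members and only a synonym of the other 64. The loci with doubled names are called by their locus tags: AT5G01830 and AT5G18030 are both listed as SAUR21, while AT1G29510 is listed as SAUR68 and SAUR67 and shares SAUR68 with AT1G29490. AT5G01830, at 2865 bp, was the longest member, and the whole family ran from 396 to 2865 bp with a median of 815 bp, against a median of 2078 bp over all coding genes.

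SAUR proteins are small, and many of their genes are induced within minutes of auxin treatment. Several of them bind and inhibit phosphatases of the PP2C clade D, which otherwise dephosphorylate the plasma membrane proton pumps, so that the pumps stay active, the cell wall acidifies and the cell expands. Upstream, auxin bound to the receptors TIR1 and AFB removes the Aux/IAA repressors and frees the auxin response factors (ARF). Growth of the hypocotyl and of the apical hook in dark-grown seedlings, the tissue studied here, depends in part on this route, and ethylene changes both.

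All libraries came from shoot tissue of 3-day-old seedlings grown in the dark at 24 °C, of a single line that carries TREE1 fused to green fluorescent protein (GFP) under the TREE1 promoter. One group of seedlings received 10 ppm ethylene for 4 h and gave 2 ChIP libraries with an anti-GFP antibody, and the other received hydrocarbon-free air for 4 h and gave 1 ChIP library. The series title links TREE1 and EIN3, a transcription factor at the end of the ethylene pathway, to repression and shoot growth. Input libraries were used by the authors to call peaks, and untagged control plants were not analysed here. In the peak lists' run names the protein is not called TREE1, and the air run is called replicate 2, so samples are named here by their labels.

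The kept tags numbered 5884897 in ethylene library 1, 9459860 in ethylene library 2 and 9325092 in air, and the lists held 9156, 9958 and 8602 peaks in that order. A gene was called bound when a peak summit fell in a window around either gene end, reaching 1000 bp outwards and 200 bp into the gene. Fold enrichment is the authors' ratio of a peak to its local background. Its list medians were 3.99, 3.39 and 3.11 in the same order, so folds are read only by their rank within a list. With 1 air library no test over samples was possible, and differences between ethylene and air have no replicate check.

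The SAUR family was bound less often than coding genes as a whole. Of the 80 members, 17 (21.25%) were bound in ethylene library 1, where 36.3% of all coding genes were bound. In ethylene library 2, 18 members (22.5%) were bound, against a background of 36.4%. In air, 24 members (30%) were bound, against 33.9%. SAUR genes are short, and short coding genes were bound less often too: of the 8333 coding genes of up to 1500 bp, a class that holds 75 of the 80 SAUR genes, 26.3%, 26.4% and 24.9% were bound in ethylene library 1, ethylene library 2 and air. Set against these, the family lay below in both ethylene libraries and above in air. No test of these shares was made. When peaks that reached into the window without a summit there counted too, 20, 22 and 26 members were bound in the same order, against 39.8%, 40.2% and 38.5% of all coding genes.

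**Figure D1:**
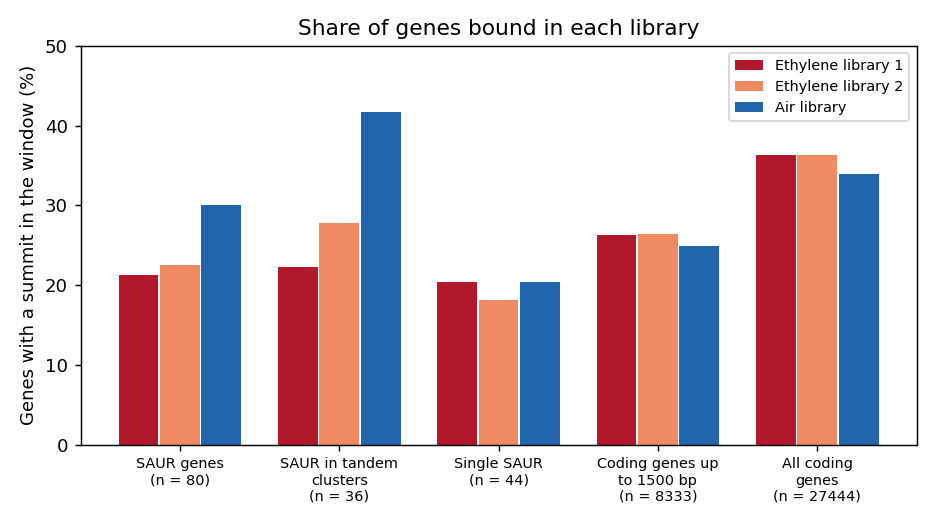
Share of genes (%) with a summit in the window, for all SAUR genes, those in tandem clusters, single SAUR genes, coding genes of up to 1500 bp and all coding genes, with 1 bar per library. SAUR genes in tandem clusters stand at 22.2% and 27.8% in the ethylene libraries, against 41.7% in air, while single SAUR genes stay between 18.2% and 20.5%.

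At least 1 library bound 30 members (37.5%, background 50.2%). Among coding genes of up to 1500 bp that share was 37.4%. Of those shorter genes, 14.8% were bound in all 3 libraries and 4.43% in both ethylene libraries and not air. Air alone bound 3.94% of them, and 62.6% were bound in no library. All 3 libraries bound 10 members (12.5%, background 21.2%): SAUR3, SAUR13, SAUR14, SAUR15, SAUR16, SAUR24, SAUR69, SAUR74, SAUR78 and AT5G01830. Both ethylene libraries and not air bound SAUR49 and SAUR54 (2.5%, background 5.94%). Air and no ethylene library bound 7 members, SAUR19, SAUR20, SAUR27, SAUR28, SAUR30, SAUR73 and SAUR77 (8.75%, background 4.63%). Ethylene library 1 and air shared SAUR45, SAUR51 and SAUR65 (background 4.1%), and ethylene library 2 and air shared SAUR7, SAUR29, SAUR50 and SAUR59 (background 3.99%). SAUR40 and SAUR48 were bound in ethylene library 1 alone (background 5.08%), and SAUR4 and SAUR44 in ethylene library 2 alone (background 5.28%). The remaining 50 members (62.5%, background 49.8%) had no summit in the window in any library. Among them, SAUR35 had a summit inside the gene in ethylene library 1 and air, more than 200 bp from either end. So did SAUR79 in ethylene library 1 and SAUR34 and SAUR53 in ethylene library 2.

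Where several libraries bound a member, they shared at least 1 site there. All 19 members called in 2 or 3 libraries had a merged peak region with a summit of each of their libraries in the window. These made 19 sites, 10 of them found in all 3 libraries, and at 18 of the 19 the summits of different libraries lay within 200 bp of each other (median spread 64 bp). The exception was SAUR69, whose summits spread over 625 bp of a broad peak of 1785 bp in air. Only overlapping peaks entered this comparison, which in part fixes the close spacing. The share of such members over all coding genes was not computed. SAUR51, SAUR59, SAUR78 and AT5G01830 also had a summit elsewhere in the window that only 1 library called.

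**Figure D2:**
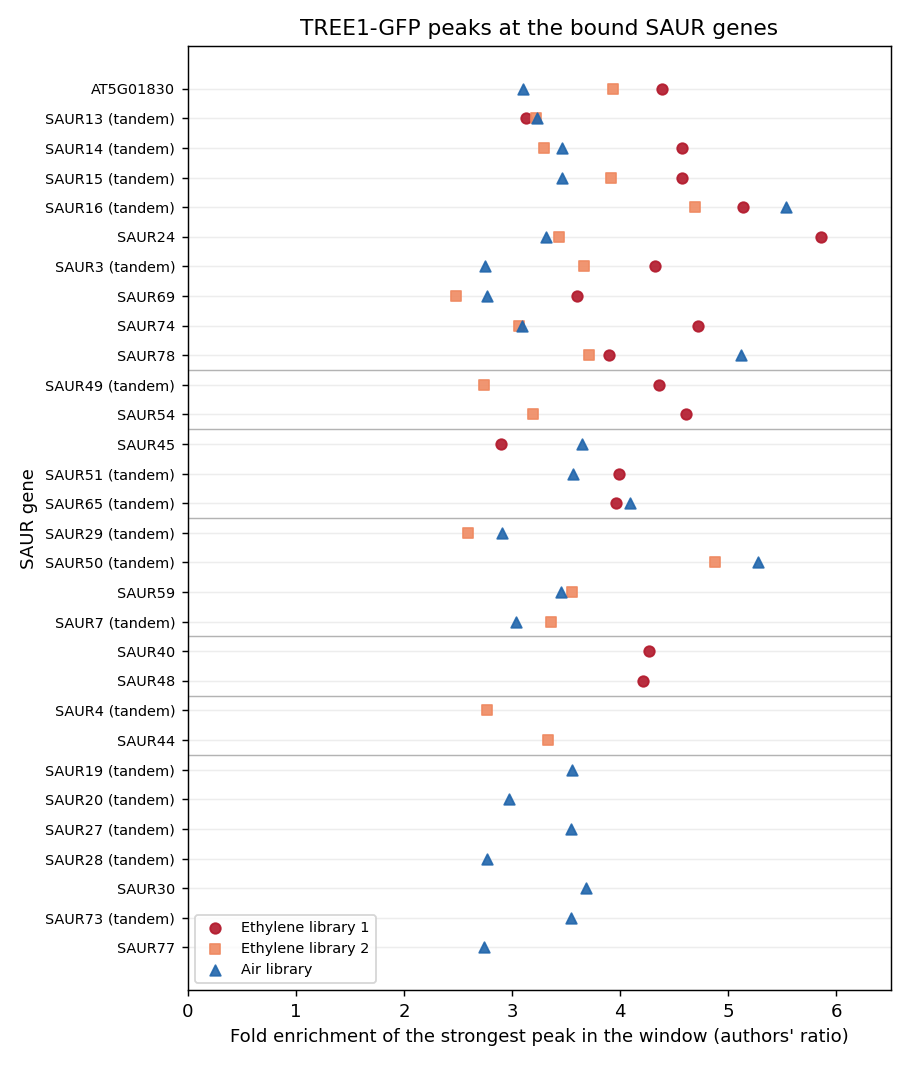
Fold enrichment of the strongest peak (x axis, authors' ratio to the local background) with a summit in the window of each of the 30 bound SAUR genes, ordered by the libraries that bound them, with 1 symbol per library. SAUR16 is high in every library at 4.69 to 5.53, and the 7 genes at the bottom have an air symbol only.

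SAUR16 had the lowest sum of fold ranks of the members bound in all libraries. It belongs to the SAUR10 subfamily, and it is known for light-induced growth of cotyledons. Its peak on chromosome 4 (TAIR10 coordinates, as in all that follow), from 18129443 to 18129916 in ethylene library 1, had folds of 5.14 in ethylene library 1 (rank 1077 of the list), 4.69 in ethylene library 2 (rank 716) and 5.53 in air (rank 81). The summits lay 509 to 573 bp outside the gene, and no other coding gene was called by them. SAUR16 thus stood in the top 11.8%, 7.19% and 0.942% of the 3 lists.

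The cluster that contains SAUR16 was the only one of the 11 tandem clusters whose members were all bound in every library. SAUR13, SAUR14, SAUR15 and SAUR16 lie within 9759 bp of chromosome 4, with 4 summits in each library. SAUR15 (SAUR-AC1), an early auxin-induced gene, was flanked by peaks on both sides. The peak between SAUR14 and SAUR15 called both genes and AT4G38830, from 18125625 to 18126123 in ethylene library 1, at folds of 4.57 and 3.29 in ethylene libraries 1 and 2 and 3.46 in air. The peak on the far side of SAUR15, from 18126850 to 18127336 in ethylene library 1, had folds of 4.12, 3.91 and 3.45. SAUR14 and SAUR15 therefore rest in part on 1 shared summit per library, and the summits next to SAUR13 also called AT4G38820, whose span lies inside that of SAUR13.

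**Figure D3:**
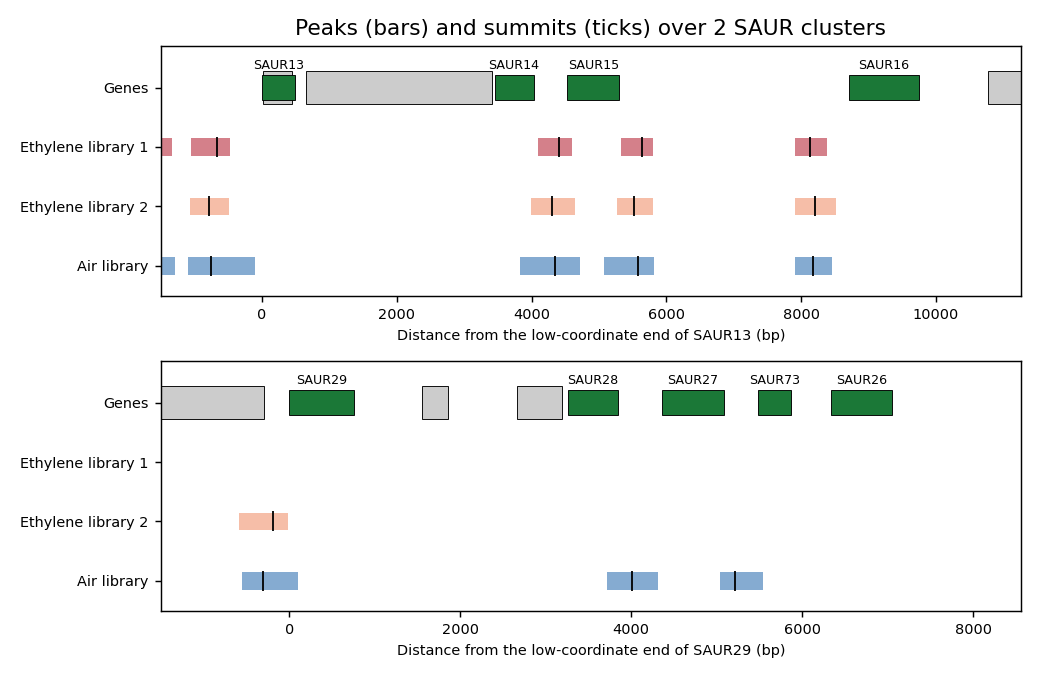
Peaks (coloured bars), summits (black ticks) and coding genes (SAUR members green, others grey) over the SAUR13 to SAUR16 cluster (top) and the SAUR26 to SAUR29 and SAUR73 cluster (bottom), with distance in bp from the low-coordinate end of the first member. The upper cluster has 4 summits near its members in each library, and the lower one has none in ethylene library 1, 1 in ethylene library 2 and 3 in air.

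Members in tandem clusters and single members were counted apart. A tandem cluster was defined by gaps of at most 5 kb between neighbouring members, which put 36 members in 11 clusters and left 44 single. Of the 36, 8 were bound in ethylene library 1, 10 in ethylene library 2 and 15 in air, by 8, 10 and 15 distinct summits (22.2%, 27.8% and 41.7%, against 36.3%, 36.4% and 33.9% of all coding genes). Of the 44 single genes, 9, 8 and 9 were bound in the same order (20.5%, 18.2% and 20.5%). The difference between tandem and single members was not tested. A single summit called a pair of members once in ethylene library 1, once in ethylene library 2 and 3 times in air. SAUR14 had only such a shared summit in every library, and SAUR27, SAUR28 and SAUR73 had only shared summits in air. When each summit was given only to its nearest coding gene, the tandem counts were 5, 6 and 11. Among the clusters, 3 were bound in every library, 5 in some and 3 in none, the last being AT1G29490 with SAUR66 and AT1G29510, SAUR22 with SAUR23, and SAUR70 with SAUR76. With peaks of a score (10 × −log10 of the p-value) of at least 100, the tandem counts came to 4, 5 and 7, and those of the whole family to 9, 9 and 10 (11.25%, 11.25% and 12.5%, against 15.7%, 16.2% and 13.1% of all coding genes).

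A pair of clusters held 5 of the 7 calls found in air alone. No air peak of these 7 members reached a score of 100. The scores ran from 53.2 at SAUR19 to 83.24 between SAUR27 and SAUR28, beside an air list median of 82.84. On chromosome 3, the 5 neighbours SAUR26 to SAUR29 and SAUR73 had no member bound in ethylene library 1, a single one in ethylene library 2 and 4 in air. SAUR29 was bound in both of these last libraries, with folds of 2.59 in ethylene library 2 and 2.91 in air. Between SAUR28 and SAUR27, an air peak from 980431 to 981031 had a fold of 2.77, below the list median, and also called AT3G03828. Between SAUR27 and SAUR73 an air peak from 981750 to 982257 had a fold of 3.54. No ethylene peak overlapped the windows of SAUR27, SAUR28 or SAUR73.

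On chromosome 5, SAUR19 to SAUR24, which promote cell expansion in hypocotyls and other organs, lie as 6 near neighbours. By the 5 kb rule they were not a single cluster. SAUR19, SAUR20 and AT5G18030 formed a cluster, SAUR22 and SAUR23 formed another, and SAUR24 counted among the single genes. SAUR19 had a peak in air only, from 5963391 to 5963767, with a fold of 3.55 and 57 tags (Poisson 95% interval 43.2 to 73.9, counting error only). SAUR20 had another in air only, from 5966748 to 5967167, with a fold of 2.97 and 66 tags (51.0 to 84.0). Both had fewer tags than the air median of 148, while by fold SAUR19 ranked 1955 and SAUR20 ranked 5212 of 8602 air peaks. SAUR24, at the other end of the group, was bound in all libraries, with folds of 5.86 in ethylene library 1 (rank 517), 3.43 in ethylene library 2 (rank 4698) and 3.31 in air (rank 3032). The SAUR24 summits lay 27, 201 and 36 bp outside the gene and also called AT5G18090. AT5G18030, SAUR22 and SAUR23 were bound in no library. Members of this group are close copies, and how reads with several matching places were treated is not given in the sources used here, so which copy a peak belongs to is uncertain.

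The other calls found in air alone were single genes. SAUR30 had a fold of 3.68, from 21772531 to 21773061 of chromosome 5, at a summit that also called AT5G53592. SAUR77 had a fold of 2.74, from 5941350 to 5942011 of chromosome 1. No ethylene peak overlapped either window.

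SAUR76, SAUR77 and SAUR78 are of interest in this tissue because their proteins have been linked to ethylene receptors. SAUR78 was bound in all libraries at a site just inside 1 end of the gene, 27265525 to 27265915 of chromosome 1 in ethylene library 1. Its folds were 3.9 in ethylene library 1, 3.71 in ethylene library 2 and 5.12 in air, where it ranked 157 of 8602. The ethylene libraries each had a further summit of lower fold outside the other end of SAUR78, at 3.73 and 2.6. These summits lay at different sites, 137 and 756 bp outside the gene, and also called AT1G72420. By score, the further peak was the higher one in ethylene library 1, at 66.03 against 52.78. The nearest summit to SAUR76 lay 6980 bp away, in air. The 3 genes thus had 3 different patterns: all libraries for SAUR78, air alone for SAUR77 and none for SAUR76.

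The pair bound with ethylene and not in air ranked lower by fold in ethylene library 2 than in ethylene library 1. SAUR49 is known for promoting leaf senescence by inhibiting a phosphatase. It had folds of 4.36 in ethylene library 1 (rank 2901 of 9156) and 2.74 in ethylene library 2 (rank 9137 of 9958). The site ran from 16576477 to 16577085 of chromosome 4 in ethylene library 1. The SAUR49 summits lay 344 and 351 bp outside the gene and also called AT4G34740. SAUR54 had folds of 4.61 (rank 2118) and 3.19 (rank 6379) in the same order. Its site ran from 6853690 to 6854071 of chromosome 1 in ethylene library 1, with summits 950 and 841 bp outside the gene. No air peak overlapped the window of either gene. With a window of 500 bp, SAUR49 alone stayed in this class. With a score of at least 100, neither did, and the class held only AT5G01830, whose air peak had a score of 68.9.

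SAUR50, which promotes opening of the apical hook and cotyledons and is opposed there by SAUR17, is the neighbour of SAUR49 and showed another pattern. Its peak, from 16582780 to 16583303 in ethylene library 2, lay over 1 end of the gene. The folds were 4.88 in ethylene library 2 (rank 561) and 5.27 in air (rank 126), and ethylene library 1 had no peak in the window. The ethylene replicates therefore disagreed at one of the strongest SAUR sites. Of the 17 and 18 members bound in ethylene libraries 1 and 2, 12 were bound in both (15% of the family, background 27.1%). Among coding genes of up to 1500 bp, 19.3% were bound in both.

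By fold, the other members bound in all libraries ranged from the top 20.5% of a list (SAUR74 in ethylene library 1) to its low end (SAUR69 in ethylene library 2). SAUR74 had folds of 4.72, 3.06 and 3.09 in ethylene library 1, ethylene library 2 and air, with summits 120 to 180 bp outside the gene that also called AT3G12950. AT5G01830 had folds of 4.39, 3.93 and 3.1, and SAUR3 had 4.32, 3.66 and 2.75. SAUR3 was the only member of the SAUR1 to SAUR5 cluster bound in all libraries, and of its neighbours SAUR4 was bound in ethylene library 2 at a fold of 2.77. SAUR13 had 3.13 and 3.22 in the ethylene libraries, below their list medians, and 3.23 in air, above its median. SAUR69 had 3.6, 2.48 and 2.77 at the summits shared with AT5G11000, below all 3 list medians.

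SAUR65, the single bound gene of SAUR61 to SAUR68, a group that promotes elongation of hypocotyls and stamen filaments, had folds of 3.96 in ethylene library 1 and 4.09 in air (ranks 4719 and 750), at a summit that also called AT1G29465. The other 7 genes of that group were bound in no library. SAUR45 had folds of 2.9 in ethylene library 1 and 3.65 in air. SAUR59 had 3.55 in ethylene library 2 and 3.45 in air, and SAUR7 had 3.36 and 3.04 at a summit shared with AT2G21190 and AT2G21195.

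Several well-studied members had no summit in the window. They include SAUR36, which promotes leaf senescence, SAUR32 and SAUR17, both linked to the apical hook, SAUR41, SAUR71 and SAUR72 of the SAUR41 subfamily, SAUR8, SAUR9, SAUR10 and SAUR12 of the SAUR10 subfamily, and SAUR62 and SAUR75, linked to pollen tube growth. SAUR40 was the only bound gene of the 4 in the SAUR41 subfamily, at a fold of 4.27 in ethylene library 1. In the SAUR10 subfamily, 3 of 7 were bound in some library. The window edge decided a few calls: SAUR51 in ethylene library 1 (summit at 1000 bp), SAUR48 in ethylene library 1 (994 bp) and SAUR54 in ethylene library 1 (950 bp) lay just inside it, while SAUR17 in ethylene library 1 (1012 bp), SAUR32 in ethylene library 2 (1028 bp) and SAUR51 in ethylene library 2 (1059 bp) lay just outside. The folds of these last 3 summits were 4.83, 3.33 and 3.78.

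The median distance from a gene to its nearest summit was 3064, 2398 and 2230 bp for SAUR genes in ethylene library 1, ethylene library 2 and air. It was 2388, 2274 and 2739 bp for all coding genes and 3703, 3615 and 4105 bp for those of up to 1500 bp, so the SAUR median was below that of short coding genes in each library, with no test made. By distance class, SAUR genes had a larger share than either set in the zone just beyond the window, though not only there. The nearest summit lay more than 1000 and at most 2000 bp from the gene for 13.75% of SAUR genes in ethylene library 1, 18.75% in ethylene library 2 and 15% in air. Over all coding genes these shares were 8.45%, 8.88% and 8.07%, and over coding genes of up to 1500 bp they were 9.26%, 9.65% and 8.76%. Closer in, at 1 to 500 bp, SAUR genes had 10%, 13.75% and 18.75%, against 20.8%, 20.2% and 19.1% for all coding genes and 15.1%, 14.9% and 14.1% for those of up to 1500 bp. With a window of 2000 bp the bound members were 29, 34 and 37 (36.25%, 42.5% and 46.25%), and the background shares were 45.1%, 45.8% and 42.4%, so that the family lay above its background in air and below it in both ethylene libraries. That background is all coding genes. By the distance classes, more SAUR genes than coding genes of up to 1500 bp had a summit inside them or at most 2000 bp away. This held for the share in each library, with the smallest gap in ethylene library 1, and was not tested.

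**Figure D4:**
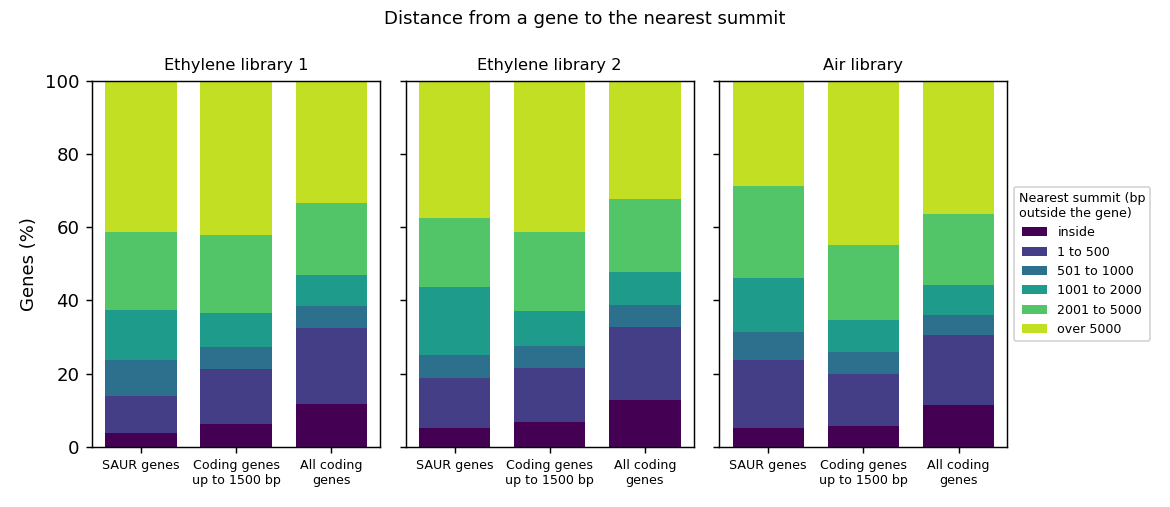
Share of genes (%) by the distance in bp from the gene to its nearest summit, with 1 panel per library and 1 stacked bar each for SAUR genes, coding genes of up to 1500 bp and all coding genes. The layer that ends at 2000 bp is thicker for SAUR genes (13.75 to 18.75%) than for all coding genes (8.07 to 8.88%).

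For 5 members, SAUR2, SAUR9, SAUR36, SAUR38 and SAUR41, the nearest summit lay in that zone between 1000 and 2000 bp in every library (6.25% of the family, 2.93% of all coding genes and 3.5% of coding genes of up to 1500 bp). The SAUR41 site, 5646544 to 5647268 of chromosome 1 in ethylene library 1, had folds of 4.65, 4.31 and 3.21 in ethylene library 1, ethylene library 2 and air. The SAUR9 site, 17092147 to 17092640 of chromosome 4, had 4.54, 4.43 and 3.5. SAUR36 had 3.89, 3.67 and 2.82, and SAUR38 had 3.45, 3.15 and 4.14. Each of these summits was in the window of another coding gene, AT1G16515 for SAUR41, AT4G36120 for SAUR9, AT2G45200 for SAUR36 and AT2G24390 with AT2G24395 for SAUR38, and that of SAUR2 was the SAUR3 site. A summit in this zone does not say which gene the protein acts on.

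Summits in SAUR windows were of ordinary strength. Their median fold was 4.21 in ethylene library 1, 3.31 in ethylene library 2 and 3.38 in air, beside list medians of 3.99, 3.39 and 3.11. A score of at least 100 was reached by 8 of 19, 9 of 20 and 10 of 24 SAUR summits (42.1%, 45.0% and 41.7%), against 38.9%, 40.4% and 35.3% of all peaks. Of these summits 12, 10 and 11 also called a coding gene outside the family. When each summit was given only to its nearest coding gene, 9, 12 and 17 SAUR genes stayed bound (backgrounds 25.2%, 25.9% and 23.4%).

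Lists of genes that act around the SAUR proteins had larger bound shares than the SAUR genes, and are read against 36.3%, 36.4% and 33.9% of all coding genes in ethylene library 1, ethylene library 2 and air. These genes are longer, with median lengths of 1740 bp for Aux/IAA genes to 5334 bp for proton pumps, and no test was made. Of the 9 PP2C clade D phosphatase genes, the targets of SAUR inhibition, 6, 7 and 7 (66.7%, 77.8% and 77.8%) were bound in the same order, with AT5G66080 highest in each at 5.49, 3.92 and 3.61. Of the 11 plasma membrane proton pump genes, 3, 4 and 4 (27.3%, 36.4% and 36.4%) were bound, a share below or near that of all coding genes. AHA11 had folds of 5.27, 5.21 and 3.15, while AHA2, a main pump of growing tissue, had 3.18 in ethylene library 2 and 2.75 in air. AHA1 was bound in none.

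Upstream, 12, 13 and 12 of 14 regulators (85.7%, 92.9% and 85.7%) were bound, where all coding genes had 36.3%, 36.4% and 33.9%. This list was chosen with earlier results of these data known, so its high share is no independent result. Its genes ran from 1739 to 5735 bp, and no background of like length was computed. ARF6 and ARF8, which activate SAUR genes in the hypocotyl, had folds of 5.65, 4.25 and 3.38 and of 4.86, 4.62 and 3.76 in ethylene library 1, ethylene library 2 and air. The receptor gene TIR1 had 4.16, 4.76 and 4.21, and ARF7 was bound in no library. Among other early auxin families, 15, 18 and 16 of 29 Aux/IAA genes were bound (51.7%, 62.1% and 55.2%). Of the 10 GH3 genes, which encode enzymes that conjugate auxin to amino acids, 4, 4 and 8 were bound (40%, 40% and 80%), near the background in the ethylene libraries. GH3.1, GH3.9, GH3.12 and GH3.17 had an air summit and no ethylene peak in the window, so the GH3 genes, like the tandem SAUR genes, had more calls in the air library than in either ethylene library. With a score of at least 100 the GH3 counts were 3, 2 and 3, and the shares of all coding genes were 15.7%, 16.2% and 13.1%.

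**Figure D5:**
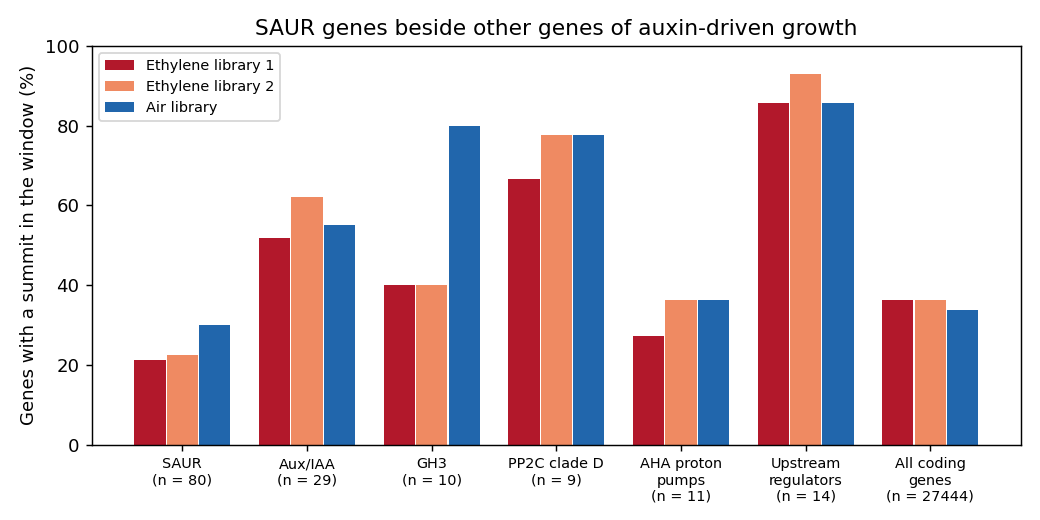
Share of genes (%) with a summit in the window for SAUR genes, the Aux/IAA and GH3 families, PP2C clade D phosphatases, AHA proton pumps, upstream regulators and all coding genes, with 1 bar per library. SAUR genes have the lowest bar in each library, at 21.25%, 22.5% and 30%. The gene lists were chosen with earlier results of these data known.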

How the data were processed

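Reads were aligned with BWA to TAIR10 and peaks called with MACS 1.4.2, per the submitters' processing notes. Per the file headers, every ChIP library had its own peak call, at a p cutoff of 1e-05 and with 1 tag kept per position; both ethylene calls used the same input and the air call another. Tags per peak are deposited counts, the deposited score is 10 × −log10 of the p-value, fold enrichment is the authors' ratio to local background, the deposited FDR is in percent, and summit height is a deposited signal. As duplicates, 53.7%, 48.6% and 49.7% of the tags of ethylene library 1, ethylene library 2 and air were removed before peaks were called.

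Calls were computed here with Python 3.11.15, numpy 2.4.6, pandas 2.3.3 and scipy 1.17.1 and checked on simulated summits. Peaks sharing at least 1 bp formed a merged region. Gene names and spans came from a TAIR10.1 table without strand or sequence, so gene starts and ends were not separated and no gene position is printed. As a check of the coordinates, summits were moved by up to 2000 bp either way, and the unmoved positions had the lowest share inside coding genes on each chromosome of each library (15 of 15). Full values were given to members bound in all libraries, members bound with ethylene or air alone, and members with known roles; sites beyond the window and pathway examples were chosen after their values were seen. The members and lists were chosen with earlier results of these data known. Whether the ethylene libraries came from separate batches of seedlings is not stated in the labels.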

Additional observations from a re-analysis of the deposited data

How the results depend on the processing

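Counts are given for ethylene library 1, ethylene library 2 and air in that order. Of 250 recomputed counts, 181 stayed within 1.5 times the reported one. With a score of at least 100, bound SAUR genes were 9, 9 and 10, tandem ones 4, 5 and 7, single ones 5, 4 and 3, summits 8, 9 and 10, PP2C genes 3, 2 and 3, Aux/IAA genes 5, 10 and 9, proton pumps 2 and 2 (ethylene library 2 and air), upstream regulators 8 (ethylene library 2) and GH3 genes 2 and 3 (ethylene library 2 and air). All libraries then bound 4 members, both ethylene libraries 5, both without air 1 and air alone 3. Those in air alone were SAUR51, SAUR65 and SAUR78, and no member reported above for air alone kept its call. With a window of 500 bp, ethylene library 1 had 9 members (5 tandem, 4 single) on 10 summits, ethylene library 2 had 13 summits and 4 PP2C genes, and air had 5 single members and 5 GH3 genes, while 6 were bound in all, 7 in both ethylene libraries and 1 in both without air. With 2000 bp, members were 29, 34 and 37, single ones 19, 21 and 16, summits 30 and 35 in ethylene, and GH3 genes 7 and 7 in ethylene, with 19 bound in all, 23 in both ethylene libraries, 4 in both without air and 30 in none. With the nearest gene only, ethylene library 1 had 9 members (5 tandem, 4 single) on 11 summits, ethylene library 2 had 6 tandem ones, proton pumps were 1, 2 and 2, and 1 member was bound in both ethylene libraries without air. Joining neighbours within 2 kb gave 4, 5 and 9 tandem members and 13 single ones in ethylene library 2 and 15 in air. Without ethylene replicate 1 or 2, the count bound with ethylene and not in air was 4 and 4, in air alone 10 to 11, in all remaining libraries 13 to 14, with ethylene 17 to 18 and in none 52 and 52. Equal list lengths, any peak overlap, a gap of 10 kb, an FDR limit of 5 percent, which removed no peak, and leaving out AT5G01830, chosen after seeing the data, kept every count within 1.5 times. The family's share lay below that of all coding genes in each library under each of these settings except air at 2000 bp. Shares of coding genes of up to 1500 bp, which the family exceeded in air, were not recomputed under these settings. Gene starts alone were not run, for lack of strand. No paired analysis was possible because the air group has 1 library. Ethylene library 1 had the fewest kept tags, 5884897, and the part of depth in its missing peaks was not tested.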
